A study of Mus musculus with 17 samples.

Results

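The aquaporin genes Aqp1, Aqp4, Aqp7 and Aqp11 were followed in RNA-seq libraries made from the apex of the mouse left ventricle after pressure overload. They are 4 of the 21798 genes in the deposited table, they were taken by symbol, and they were selected on their measured values across all libraries, so their levels and group differences are given as a description with no test. All 4 passed the filter on low values, a CPM (a gene's reads scaled to a fixed total per library) of at least 0.5 in at least 3 libraries, which 16218 genes passed. The mice were male C57Bl6/J, 7 to 8 weeks old at surgery, and carried no genetic change. Transverse aortic constriction (TAC), in which a ligature narrows the aortic arch so that the left ventricle pumps against a raised pressure, was compared with a Sham operation. Gavage began 1 week after surgery and lasted 2 weeks, with 6 doses of either saline (Veh) or 50 μg/kg of 29P, an orally available compound directed at αvβ3 integrin. Tissue was taken 3 weeks after surgery from 5 Sham Veh and 3 Sham 29P mice and from 3 TAC Veh and 6 TAC 29P mice, 1 library a mouse, with S numbers as in the labels. Another TAC Veh library was removed by the authors because it clustered with Sham mice.

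Aquaporins are membrane channels that form tetramers in which each subunit has its own pore. Aqp1 is a water channel of capillary endothelium and red blood cells that is also found in cardiac muscle, and Aqp4 is a water channel best known from astrocyte endfeet, where syntrophin and dystrophin hold it at the membrane. Aqp7 belongs to the aquaglyceroporins, which pass glycerol as well as water, and is known from adipose tissue. Aqp11 is a distant family member located in the endoplasmic reticulum. In the heart, water and glycerol channels are of interest for cell volume, oedema and fuel supply under load.

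Each subunit's pore is lined by a pair of short boxes, classically asparagine, proline and alanine, and the coding sequence around both boxes is shown because it separates the water channel, the glycerol channel and the distant member. The stretches were read from GENCODE vM21 transcripts (mm10), 5′ to 3′ on the coding strand, with the box of 3 codons in capitals. Boxes were searched as in-frame AAC or AAT followed by CCN and any codon, or by GCN GCN. In Aqp1 the first box lies in exon 1 of 4 (chr6:55336716-55336724, + strand) and the second in exon 3 (chr6:55345837-55345845). In Aqp7 the boxes lie in exon 5 of 8 (chr4:41035611-41035619, - strand) and exon 7 (chr4:41034813-41034821). In Aqp11 the matches lie in exon 1 of 3 (chr7:97737685-97737693, - strand) and exon 2 (chr7:97729053-97729061).
Aqp1 first box, from codon 76: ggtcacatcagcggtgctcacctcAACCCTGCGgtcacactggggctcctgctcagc
Aqp1 second box, from codon 192: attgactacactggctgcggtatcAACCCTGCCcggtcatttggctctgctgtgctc
Aqp7 first box, from codon 79: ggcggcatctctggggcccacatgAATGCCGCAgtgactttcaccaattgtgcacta
Aqp7 second box, from codon 211: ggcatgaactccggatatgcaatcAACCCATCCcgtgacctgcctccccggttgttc
Aqp11 first match, from codon 99: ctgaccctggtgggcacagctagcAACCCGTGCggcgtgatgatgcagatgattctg
Aqp11 second match, from codon 216: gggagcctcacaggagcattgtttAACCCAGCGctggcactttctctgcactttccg

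Only the Aqp1 boxes and the second Aqp11 match held the classical order of codons, AAC CCN GCN. Aqp7 had an alanine codon in place of proline in its first box and a serine codon in place of alanine in its second, and the first Aqp11 match ended in a cysteine codon. The same search also met AATGCAGCT from codon 288 of Aqp7 and AATCCCATC from codon 157 of Aqp11, outside the stretches shown. The coding sequences ran to 269 codons in Aqp1, 303 in Aqp7 and 271 in Aqp11.

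Estimated depth was 14.2 to 23.8 M reads a library (median 20.4 M), read from the step between low CPM values. Cardiomyocyte markers summed to 35789 to 53577 CPM in every library. Some libraries stood apart. In S18 (TAC 29P), S19 and S20 (both Sham Veh) 5 atrial markers summed to 1591 to 2671 CPM against 5.57 to 18.9 CPM in the other 14. The aquaporin differences, and some counts of the gene lists, are therefore given with and without S18, S19 and S20. Mitochondrially encoded genes took 29.1 to 40.0% of the total in the Sham groups and 23.6 to 29.4% in the TAC groups. The median log2 difference over all genes tested was 0.35 for TAC Veh minus Sham Veh and 0.37 for TAC 29P minus Sham 29P, and 0.03 for both after TMM scaling, which sets the bulk of genes level between libraries. Differences after TAC are therefore also given relative to that median. In whole-tissue RNA, fewer cells of a type and less RNA per cell cannot be told apart.

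Per kilobase of exon the members spanned 3 orders of magnitude. Aqp1 averaged 148 CPM per kb (84.1 to 221 over the 17 libraries), Aqp7 6.65 (3.49 to 9.55), Aqp4 0.510 (0.144 to 1.18) and Aqp11 0.141 (0.0570 to 0.228). The ranges of Aqp1 and Aqp7 did not overlap with each other or with those of the other 2, whereas those of Aqp4 and Aqp11 overlapped. Aqp1 rested on 3130 to 10899 estimated reads a library, Aqp7 on 157 to 603, Aqp4 on 17.98 to 160 and Aqp11 on 11.99 to 51.0. Across libraries the highest CPM was 8.22 times the lowest for Aqp4, 3.99 times for Aqp11, 2.73 times for Aqp7 and 2.63 times for Aqp1. Within groups the pooled SD of log2 CPM was 0.36 for Aqp1, 0.40 for Aqp4, 0.49 for Aqp11 and 0.53 for Aqp7.

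**Figure D1:**
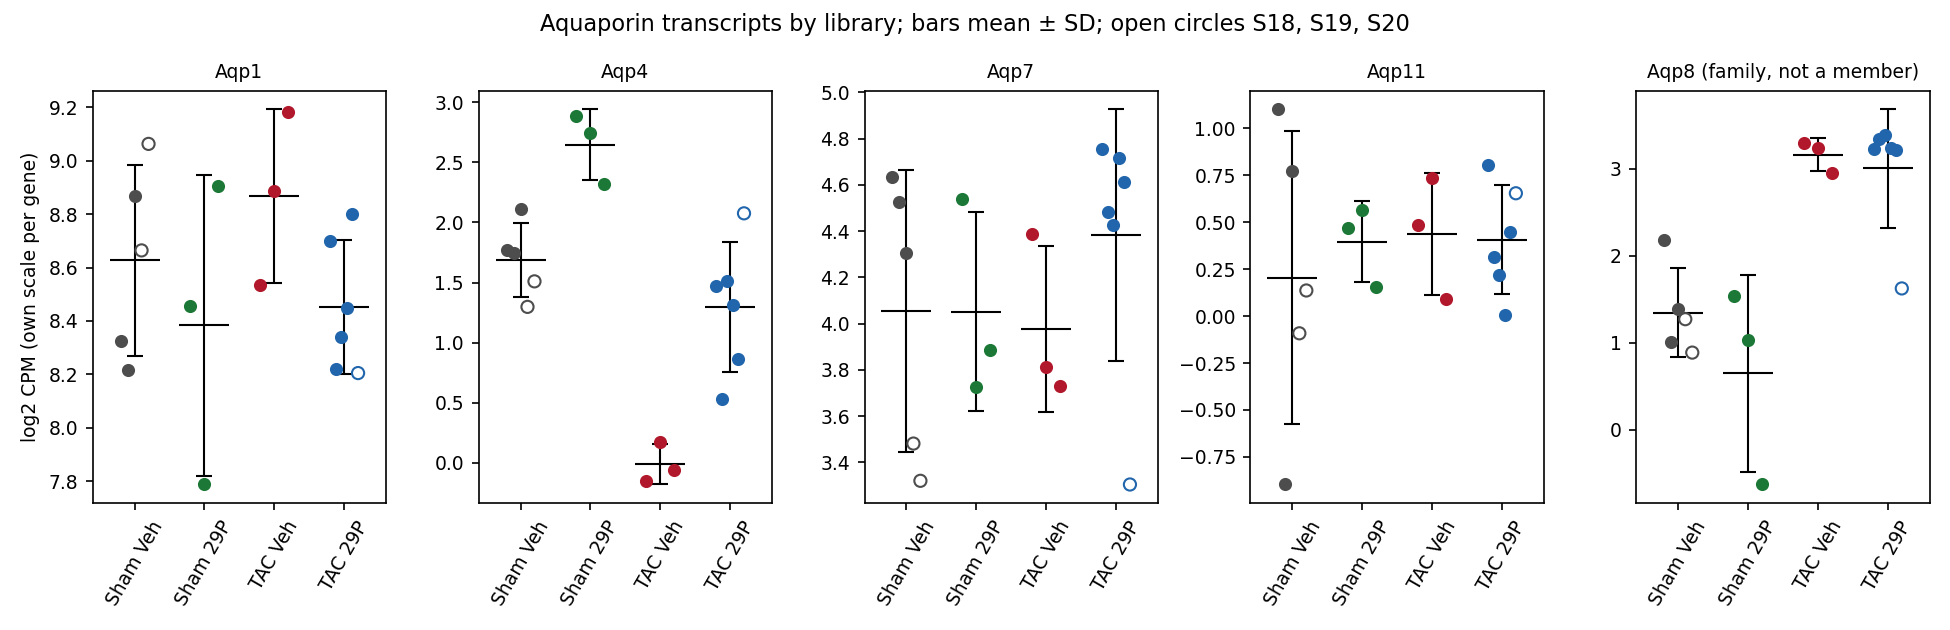
log2 CPM of the 4 aquaporins and of Aqp8, a further family gene, in each library by group, each gene on its own scale, with bars for the mean ± SD and open circles for the libraries with atrial transcripts. The group means of Aqp4 sit at different heights, with TAC Veh lowest at a mean log2 CPM of -0.01 and Sham 29P highest at 2.65. The Sham Veh and TAC 29P libraries of Aqp4 overlap, while for Aqp1, Aqp7 and Aqp11 all groups overlap.

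Aqp4 differed most between the groups: it was lowest in TAC Veh hearts, and in both the Sham and the TAC groups it was higher with 29P than with Veh. The gene lies on the - strand at chr18:15389496-15410982, and the annotation places the antisense gene AC133525.2 across part of it. The strand setting of the counting was not stated, so reads of the pair may not have been told apart.

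In Sham Veh hearts Aqp4 was 3.41, 3.36, 4.33, 2.46 and 2.85 CPM in S5, S6, S13, S19 and S20 (mean 3.28 ± 0.703, SD, n = 5). The 3 TAC Veh hearts held 0.898, 1.12 and 0.960 CPM in S2, S12 and S16 (mean 0.994 ± 0.117, SD, n = 3). Every TAC Veh library that the authors kept lay below every Sham Veh library. The log2 difference, TAC Veh minus Sham Veh, was -1.70 (SE 0.29), a level 3.25-fold lower, or -2.05 relative to the median of all genes. It ranked 126th from the lowest of the 16218 genes. With about 17.98 to 22.98 reads behind each TAC Veh value, counting error alone amounts to about 0.33 on the log2 scale, larger than the SD of 0.17 between these 3 libraries.

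In Sham 29P hearts Aqp4 was 7.38, 6.70 and 4.99 CPM in S4, S14 and S15 (mean 6.35 ± 1.23, SD, n = 3). All 3 lay above every Sham Veh library, with a log2 difference of 0.96 (SE 0.29), or 1.95-fold. The 6 TAC 29P hearts ran from 1.44 CPM (S3) through a median of 2.63 to 4.22 CPM in S18 (mean 2.60 ± 0.967, SD, n = 6). All 6 lay above every TAC Veh library and below every Sham 29P library. The log2 difference was 1.31 (SE 0.28, 2.48-fold) for TAC 29P minus TAC Veh and -1.35 (SE 0.28, 2.56-fold lower) for TAC 29P minus Sham 29P, or -1.73 relative to the median of all genes in the latter.

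From highest to lowest, the Aqp4 means ran Sham 29P, Sham Veh, TAC 29P and TAC Veh. The neighbours Sham Veh and TAC 29P overlapped, whereas the other neighbours in that order did not. Each of these comparisons shares a group with 2 of the others. TAC Veh minus Sham Veh and TAC 29P minus Sham 29P have no library in common, nor have TAC 29P minus TAC Veh and Sham 29P minus Sham Veh.

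S18, the highest TAC 29P library for Aqp4, and the 2 lowest Sham Veh libraries, S19 and S20, are the ones with atrial transcripts. Without these 3 the log2 difference was -1.89 for TAC Veh minus Sham Veh, 0.77 for Sham 29P minus Sham Veh, 1.15 for TAC 29P minus TAC Veh and -1.51 for TAC 29P minus Sham 29P. The animal numbers in the labels fall into 4 runs, and the largest, S1 to S11, holds mice of all 4 groups. Within it Aqp4 was 3.36 and 3.41 CPM in Sham Veh, 7.38 in Sham 29P, 0.898 in TAC Veh and 1.44 to 2.86 in TAC 29P. In the other runs it was 2.46 to 4.33 CPM in Sham Veh, 4.99 and 6.70 in Sham 29P and 0.960 and 1.12 in TAC Veh, and 4.22 in the single TAC 29P library. The order of Sham 29P over Sham Veh over TAC Veh held in both divisions, while TAC 29P lay below both Sham Veh libraries in the first and within their range in the second.

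Glial markers, looked at because Aqp4 is a glial gene in the nervous system, were all 6 in the table. They summed to 10.5 to 18.05 CPM in Sham Veh, 14.7 to 18.4 in Sham 29P, 12.003 to 18.7 in TAC Veh and 13.8 to 18.2 in TAC 29P. Gfap was listed at 0 in 4 libraries. The sums of all 4 groups overlapped, which for Aqp4 was so of Sham Veh and TAC 29P only.

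Aqp1, on chr6:55336432-55348555 (+ strand), was the most abundant aquaporin and ranked 219th of all genes in the table by mean CPM. Sham Veh hearts held 321, 297, 466.7, 406 and 535 CPM (S5, S6, S13, S19 and S20), a mean of 405 ± 99.2 (SD, n = 5). Sham 29P hearts held 351, 221 and 480 CPM (S4, S14 and S15), a mean of 351 ± 130 (SD, n = 3). All groups overlapped, with the Sham 29P hearts the most spread.

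TAC Veh hearts held 371, 473 and 582 CPM of Aqp1 (S2, S12 and S16), a mean of 475 ± 105 (SD, n = 3). TAC 29P hearts ran from 295 through a median of 337 to 446 CPM, a mean of 355 ± 63.0 (SD, n = 6). Of the 6, 4 lay below every TAC Veh library. The means were in the order TAC Veh, Sham Veh, TAC 29P and Sham 29P, with overlap between all neighbours.

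The log2 difference of Aqp1 was 0.24 (SE 0.23) for TAC Veh minus Sham Veh and 0.07 (SE 0.23) for TAC 29P minus Sham 29P, or -0.10 and -0.30 relative to the median of all genes. With TMM scaling both turned negative, at -0.08 and -0.28. It was -0.42 (SE 0.23) for TAC 29P minus TAC Veh and -0.24 (SE 0.23) for Sham 29P minus Sham Veh. Within S1 to S11 alone the former was -0.03 and the latter 0.19. Without S18, S19 and S20 the differences, in the order given, were 0.40, 0.12, -0.37 and -0.09.

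Markers of the cells known for Aqp1 were summed by group. Both sets of sums lay apart between the Veh groups and overlapped between the 29P groups. All 10 endothelial markers were in the table, and they summed to 788 to 1260 CPM in Sham Veh, 658 to 1174 in Sham 29P, 1264 to 1607 in TAC Veh and 1114 to 1589 in TAC 29P. All 7 erythroid markers were in the table as well, at 1018 to 2464 CPM in Sham Veh, 562 to 1681 in Sham 29P, 3083 to 4996 in TAC Veh and 1037 to 4153 in TAC 29P. Their part in the levels of Aqp1 was not tested.

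Aqp7, on chr4:41033074-41048139 (- strand), lay apart between the run S1 to S11 and the other libraries, while all groups overlapped. Groups were spread unevenly over the runs, and the part of surgery, treatment or run was not tested. In S1 to S11 it was 21.0 to 27.0 CPM in all 9 libraries (mean 23.7 ± 2.07, SD), and in the other 8 libraries it was 9.88 to 19.8 CPM (mean 13.3 ± 3.20, SD), with no overlap. Of all genes tested, 0.0432% lay wholly higher in S1 to S11. The 3 libraries with atrial transcripts, the last run, had the lowest values, 9.88, 11.2 and 9.99 CPM in S18, S19 and S20.

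Within S1 to S11 Aqp7 was 24.9 and 23.0 CPM in Sham Veh (S5 and S6), 23.2 in Sham 29P (S4) and 21.0 in TAC Veh (S2), and 21.5 to 27.0 in the 5 TAC 29P hearts. In the remaining runs Sham Veh held 19.8, 11.2 and 9.99 CPM (S13, S19 and S20), Sham 29P 13.3 and 14.8 (S14 and S15) and TAC Veh 14.04 and 13.3 (S12 and S16). Every group that had libraries in both divisions was higher in S1 to S11. Over all libraries the group means were 21.9 ± 6.27 CPM in TAC 29P (n = 6), 17.8 ± 6.81 in Sham Veh (n = 5), 17.1 ± 5.38 in Sham 29P (n = 3) and 16.1 ± 4.23 in TAC Veh (n = 3), each with its SD and all overlapping. TAC 29P is the group with most of its libraries, 5 of 6, from S1 to S11.

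**Figure D2:**
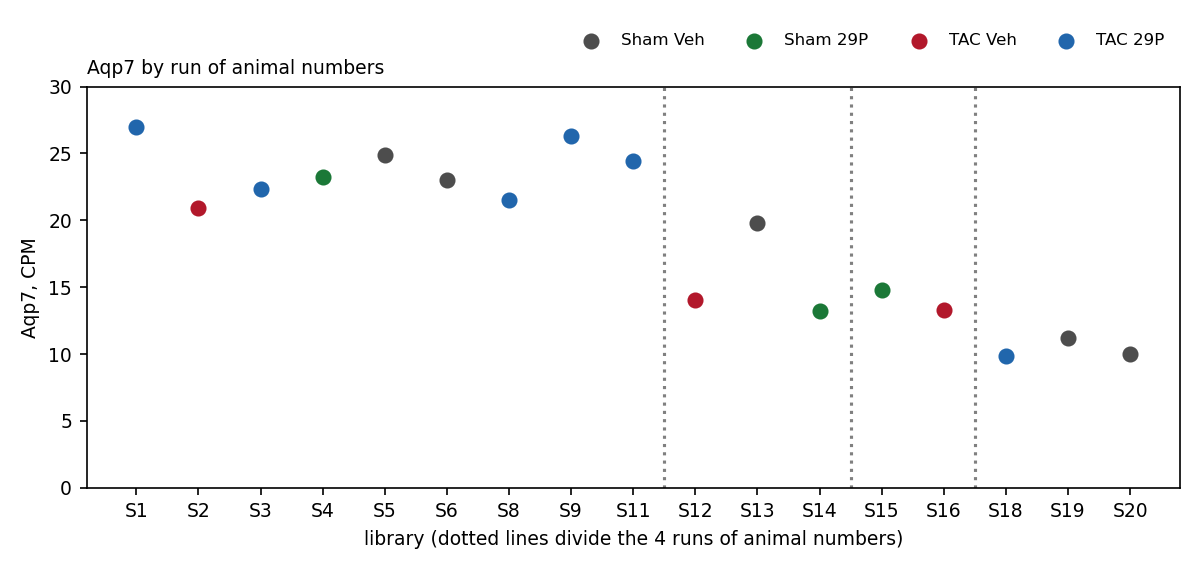
Aqp7 in CPM in each library, in the order of the library numbers, coloured by group, with dotted lines between the 4 runs of animal numbers. The 9 libraries S1 to S11 sit between 21.0 and 27.0 CPM whatever their group, above all 8 others.

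The log2 difference of Aqp7 was -0.08 (SE 0.34) for TAC Veh minus Sham Veh, 0.33 (SE 0.33) for TAC 29P minus Sham 29P, 0.41 (SE 0.33) for TAC 29P minus TAC Veh and 0.00 (SE 0.34) for Sham 29P minus Sham Veh. With the run as a covariate the SE fell to 0.14 and the differences were -0.33, 0.18, 0.25 and -0.25. Relative to the median of all genes the first 2 were -0.42 and -0.04. Without S18, S19 and S20, the libraries with the lowest Aqp7, the 4 differences were -0.51, 0.55, 0.62 and -0.44. Their SEs, in that order, were 0.21, 0.19, 0.19 and 0.21.

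Adipocyte markers, of which 5 of 6 were in the table, summed to 0.252 to 0.876 CPM in S1 to S11 and to 0.245 to 17.7 CPM in the other runs. By group the sums were 0.252 to 17.7 CPM in Sham Veh, 0.876 to 3.40 in Sham 29P, 0.245 to 0.853 in TAC Veh and 0.358 to 11.3 in TAC 29P. Adipoq and Cidec were listed at 0 in 4 libraries each, Retn in 5 and Plin1 in 3. The highest sums were in the libraries with atrial transcripts, 2.86 to 17.7 CPM, where Aqp7 was lowest.

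Aqp11, on chr7:97724006-97738289 (- strand), was the scarcest member and did not separate by group. Sham Veh hearts held 2.15, 0.537, 1.71, 0.938 and 1.10 CPM (S5, S6, S13, S19 and S20), a mean of 1.29 ± 0.639 (SD, n = 5). Sham 29P hearts held 1.38, 1.48 and 1.11 CPM (S4, S14 and S15), a mean of 1.33 ± 0.190 (SD, n = 3). The Sham Veh range enclosed all other libraries.

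TAC Veh hearts held 1.40, 1.66 and 1.07 CPM of Aqp11 (S2, S12 and S16), a mean of 1.38 ± 0.299 (SD, n = 3), and TAC 29P hearts ran from 1.002 through a median of 1.30 to 1.74 CPM, a mean of 1.35 ± 0.273 (SD, n = 6). The log2 differences were 0.23 (SE 0.37) for TAC Veh minus Sham Veh, 0.01 (SE 0.36) for TAC 29P minus Sham 29P, -0.03 (SE 0.36) for TAC 29P minus TAC Veh and 0.19 (SE 0.37) for Sham 29P minus Sham Veh. The first 2 were -0.11 and -0.36 relative to the median of all genes, and -0.09 and -0.34 after TMM scaling. Without S18, S19 and S20 the 4 values were 0.11, -0.04, -0.08 and 0.07. The counting error of a value here, about 0.27 to 0.30 on the log2 scale, is close to the SD between libraries of 0.21 to 0.32 in 3 of the groups and below the 0.78 of Sham Veh.

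Counted by the call rule over all genes (limma with Benjamini-Hochberg adjustment, adjusted p of 0.05 or less), 1 of the 4 members, Aqp4, was lower in TAC Veh than in Sham Veh, beside 1.91% of all genes tested, and 0 were higher, beside 22.5%. For TAC 29P minus Sham 29P, 1 member, again Aqp4, was lower, beside 1.12%, and 0 were higher, beside 31.4%. For TAC 29P minus TAC Veh no gene of the 16218 passed the adjustment (smallest adjusted p 0.540 by limma), and at an unadjusted p of 0.05 or less, which 321 genes or 1.98% met, Aqp4 was the only member. For Sham 29P minus Sham Veh 1 gene passed the adjustment, 4833412C05Rik, which is listed at 0 in every Sham 29P library, and 7.49% met the unadjusted limit, with Aqp4 again the only member. The libraries of the groups compared did not overlap for Aqp4 in any of these, in a direction shared by 2.23%, 1.08%, 0.839% and 0.629% of all genes in the same order. Since the members were selected on these values, nothing is read from the counts.

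**Figure D3:**
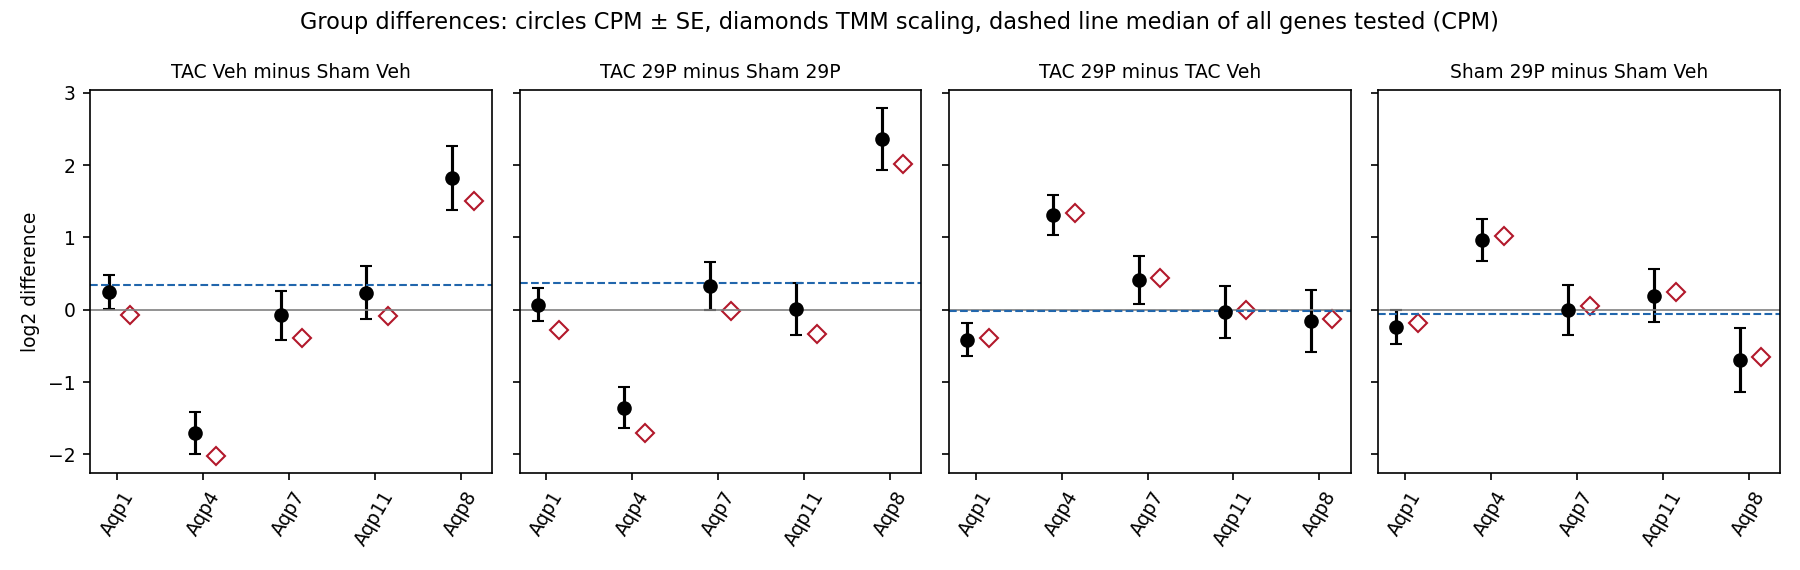
log2 differences of the 4 aquaporins and Aqp8 in the 4 comparisons, as circles with the SE for CPM and as open diamonds for TMM scaling, with a dashed line at the median of all genes tested. Aqp4 lies at -1.70 and -1.35 after TAC and at 1.31 and 0.96 with 29P, and the diamonds of Aqp1 and Aqp11 lie on the other side of 0 from their circles for TAC Veh minus Sham Veh.

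Of the 12 aquaporin family symbols looked for, 7 were in the table and 5 passed the filter, the fifth being Aqp8, a channel for water, ammonia and hydrogen peroxide (chr7:123462291-123468004, + strand). Aqp8 was higher after TAC. It was 4.54, 2.01, 2.61, 2.41 and 1.85 CPM in Sham Veh (S5, S6, S13, S19 and S20), 2.91, 2.04 and 0.645 in Sham 29P (S4, S14 and S15) and 9.83, 9.49 and 7.73 in TAC Veh (S2, S12 and S16). TAC 29P hearts ran from 3.08 through a median of 9.39 to 10.5 CPM, the lowest being S18. Every TAC library lay above the Sham libraries of the same treatment, as for 27.6% of all genes in Veh and 25% in 29P hearts.

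The log2 difference of Aqp8 was 1.82 (SE 0.44, limma adjusted p = 0.0109) for TAC Veh minus Sham Veh and 2.36 (SE 0.43, limma adjusted p = 0.00263) for TAC 29P minus Sham 29P. Without S2 the former was 1.75, with a limma adjusted p of 0.0686. With TMM scaling the values were 1.498 and 2.01 (limma adjusted p = 0.0371 and 0.00848). Between TAC 29P and TAC Veh it was -0.16 (SE 0.43) and between Sham 29P and Sham Veh -0.70 (SE 0.44), neither past the threshold (limma adjusted p = 1 and 0.724). The 4 differences without S18, S19 and S20 were 1.64, 2.64, 0.12 and -0.88. Relative to the median of all genes the differences after TAC were 1.47 in Veh and 1.99 in 29P hearts. Aqp2 and Aqp9 were under the filter, at 0 to 0.448 and 0 to 0.2993 CPM.

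Of the 17 genes of the complex that anchors Aqp4, 7 were higher and 0 lower in TAC Veh than in Sham Veh (limma adjusted p of 0.05 or less), beside 22.5% and 1.91% of all genes, with a list median of 0.43 beside 0.35 for all genes. Lama2, a laminin chain of the basement membrane that binds dystroglycan, rose by 0.74 (SE 0.12, limma adjusted p = 0.00151). Sntb2 and Sntb1, the beta syntrophins, rose by 0.77 (SE 0.16, limma adjusted p = 0.00517) and 0.83 (SE 0.18, limma adjusted p = 0.00661). Dmd, dystrophin, rose by 0.57 (SE 0.19, limma adjusted p = 0.0430), while Dag1, dystroglycan, was 0.29 (SE 0.14, limma adjusted p = 0.129).

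After TMM scaling Lama2 and Sntb2 were called higher. Without S18, S19 and S20, 5 were higher (Sntb1, Sntb2, Utrn, Agrn and Lama2) and 0 lower. With 29P after TAC, 8 were higher and 0 lower than in Sham 29P, beside 31.4% and 1.12% of all genes, with a median of 0.51 beside 0.37, and 1, Sntb1, was higher after TMM scaling. Between the 2 Sham groups 0 of the 17 met the unadjusted limit. Fibroblasts, which also express laminins, differed in their 6 markers, which summed to 724 to 1150 CPM in Sham Veh, 647 to 799 in Sham 29P, 1480 to 2115 in TAC Veh and 995.45 to 2102 in TAC 29P, and their part in this list was not tested. List genes outside the rule for named genes were named after their values were seen, here and for the other lists.

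Of 16 genes that handle glycerol and triglyceride, the substrates around Aqp7, 0 were called in either direction in TAC Veh against Sham Veh, beside 22.5% of all genes higher and 1.91% lower, with a median of 0.19. Gk, glycerol kinase, was 0.34 (SE 0.15, limma adjusted p = 0.0991) and Lpl, lipoprotein lipase, was -0.31 (SE 0.16, limma adjusted p = 0.155). Pnpla2 and Lipe, which split stored triglyceride, were 0.02 (SE 0.22, limma adjusted p = 0.950) and 0.24 (SE 0.33, limma adjusted p = 0.595). In TAC 29P against Sham 29P, Lpl fell by 0.59 on the log2 scale (SE 0.16, limma adjusted p = 0.0135), the 1 gene of the list that was called. TMM scaling called 2 genes lower in Veh hearts, Cd36, a fatty acid transporter, and Plin5, a lipid droplet protein, 3 in 29P hearts, Lpl, Gpd2 and Dgat2, and 0 higher. At the unadjusted limit 1 gene was higher with 29P within TAC, Plin5, and 1 within Sham, Gk.

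Of 18 genes tested for cell volume and osmolytes, 9 were higher and 1 lower in TAC Veh than in Sham Veh, beside 22.5% and 1.91% of all genes, with a median of 0.57. Slc6a6, the taurine transporter, rose by 0.81 (SE 0.14, limma adjusted p = 0.00181), Wnk1, a kinase that governs chloride transporters, by 0.62 (SE 0.11, limma adjusted p = 0.00291) and Nfat5, the factor that answers to high osmolarity, by 0.60 (SE 0.15, limma adjusted p = 0.0108). Akr1b3, aldose reductase, which makes sorbitol, fell by 0.38 on the log2 scale (SE 0.13, limma adjusted p = 0.0445). TMM scaling left 1 called higher, Slc6a6, and 1 lower, Akr1b3. Without S18, S19 and S20, 5 were higher (Nfat5, Slc6a6, Lrrc8a, Lrrc8d and Wnk1) and 0 lower. In TAC 29P against Sham 29P 4 were higher (Slc6a6, Lrrc8d, Slc12a4 and Wnk1) and 0 lower, beside 31.4% and 1.12% of all genes, with a median of 0.34, below the 0.37 of all genes. TMM scaling there called 0 higher and 1 lower, Stk39, a kinase downstream of Wnk1. No gene of this list met the unadjusted limit between the 29P and Veh groups.

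Of 16 genes for folding and peroxide in the endoplasmic reticulum, where Aqp11 lies, 2 were higher and 0 lower in TAC Veh than in Sham Veh, beside 22.5% and 1.91% of all genes, with a median of 0.11, below that of all genes. Only Gpx7 was higher without S18, S19 and S20. Ero1lb, an oxidase of that compartment, rose by 0.68 (SE 0.16, limma adjusted p = 0.0104) and Gpx7, a peroxidase, by 0.78 (SE 0.22, limma adjusted p = 0.0184). Hspa5, the chaperone BiP, was -0.51 (SE 0.23, limma adjusted p = 0.0991) and Prdx4, a peroxiredoxin, 0.25 (SE 0.19, limma adjusted p = 0.342). With TMM scaling 0 were called higher and 2 lower, Dnajb9 and Hspa5, the latter at -0.83 (limma adjusted p = 0.0289). In TAC 29P against Sham 29P 4 were higher (Gpx7, Prdx4, Gpx8 and Pdia4) and 0 lower, beside 31.4% and 1.12% of all genes, with Gpx7 at 1.32 (SE 0.21, limma adjusted p = 0.00139) and Prdx4 at 0.60 (SE 0.19, limma adjusted p = 0.0255). Of these, 3 were higher without S18, S19 and S20, Pdia4 no longer. After TMM scaling Gpx7 was called higher there and Canx and Dnajb9 lower. Within Sham, Gpx7 was lower and Ero1lb higher with 29P at the unadjusted limit.

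**Figure D4:**
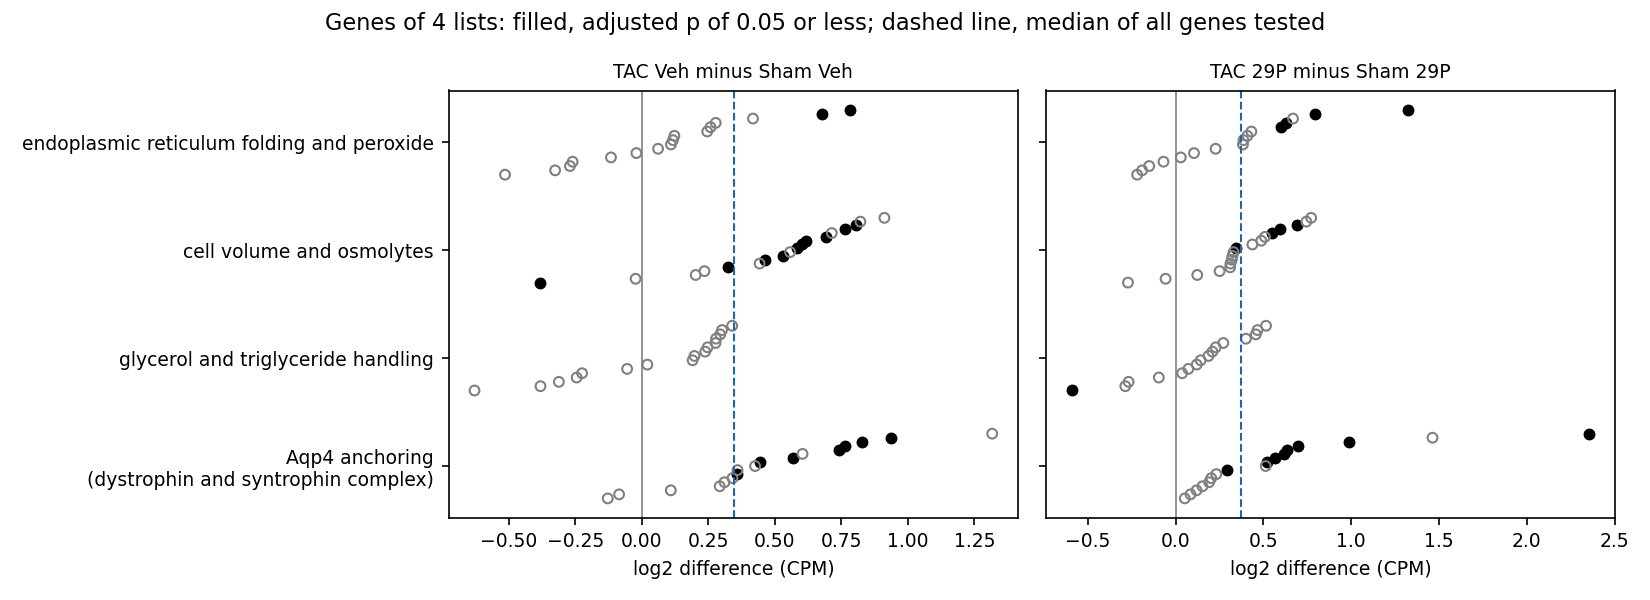
log2 differences of the genes of the 4 lists for TAC Veh minus Sham Veh and TAC 29P minus Sham 29P, filled where the limma adjusted p was 0.05 or less, with a dashed line at the median of all genes tested. In the first comparison 7 genes of the anchoring complex and 9 of the volume list are filled on the right, and 0 of the glycerol list.

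Within groups the correlations between members were low, and none was tested. Counting error enters those with Aqp4 or Aqp11, which are low in reads. Over the 17 libraries, Pearson's r between the deviations of log2 CPM from the 4 group means ran from -0.20 for Aqp1 with Aqp4 to 0.32 for Aqp4 with Aqp11, and it was 0.66 for Aqp7 with Aqp8. These are descriptions over libraries that share runs and depth. S18 was the lowest TAC 29P library for both Aqp7 (9.88 CPM) and Aqp8 (3.08 CPM), and r without it was not computed.

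Among 14053 genes with a mean of at least 1 CPM, those with deviations most like Aqp1 were Lrrc10 (r = 0.90), a heart muscle protein, Ehd1 (0.89), of endosomal recycling, and Cdc42ep4 (0.88), an effector of Cdc42. For Aqp4 they were Gm10635 (0.86), Gm16185 (0.83) and Med12l (0.81), a Mediator subunit. For Aqp7 they were 9530082P21Rik (0.95), Tspan15 (0.94), a tetraspanin, and Zfp39 (0.91), a zinc finger protein. For Aqp11 they were Ak4 (0.92), a mitochondrial adenylate kinase, Clint1 (0.91), a clathrin adaptor, and Prr14l (0.91). Aqp4 and Aqp11 are low in reads, so counting error enters their values of r. For each member these are the highest of 14053 values over 17 libraries, so the choice itself raises r, and no test was run.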

How the data were processed

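The series holds 17 RNA-seq libraries of the apex of the left ventricle. Per the submitters' notes, alignment was to mm10 by STAR 2.3.7 within Partek Flow. The authors left 3 libraries out and deposited gene-level CPM with 0.0001 added to every value. Of these 3, a TAC Veh library was removed because it clustered with Sham mice, and the rest for low read numbers. Only 79.4 to 82.5% of low values were whole multiples of a library's step (within 0.02 reads), so read counts were not restored. The strand setting of the counting is not given in the sources used here. Groups were taken from the sample labels. The 4 members and all gene lists were chosen with earlier results of these data known.

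log2 of the deposited values was fitted with limma 3.58.1 in R 4.3.3, with 1 mean for each of 4 groups, all 17 libraries and a variance trend (16218 genes, a CPM of at least 0.5 in 3 libraries). Calls used a Benjamini-Hochberg adjusted p of 0.05 or less. A p-value sets a group difference against the spread between single mice within groups. That spread is 1 estimate per gene, shared over the 4 groups and drawn towards the variance trend. The fit was tested on simulated data. Figures used Python 3.11.15 and matplotlib 3.10.9.

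Alternatives were TMM and median-of-ratios factors, totals without mitochondrially encoded genes, added constants of 0.1 and 1, other filters, only the groups compared, run of animal numbers as a covariate, and the omission of each library in turn. Leaving out S18, S19 and S20, and S1 to S11 alone, were chosen after seeing the data. Named genes were the members, the other family genes, up to 3 genes a direction from each list with the smallest p for TAC Veh minus Sham Veh, 11 list genes named whatever their values and the 3 most like each member. Coordinates are those of GENCODE vM21. Values of some named list and marker genes are not reported here.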

Additional observations from a re-analysis of the deposited data

Results flagged for a closer look

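Among 10 groups of 5 or 6 libraries screened on log2 CPM with Dixon's ratio, for the 4 members and Aqp8, 2 had a library far from the others, and chance flags about 1 in 20 groups. Both were S18 in the TAC 29P group. Its Aqp7 was 9.88 CPM against 21.5 to 27.0 CPM in the other 5 libraries, with a gap of 0.774 of the group's range. Its Aqp8 was 3.08 CPM, with a gap of 0.903 of the range. S18 is the only TAC 29P library outside S1 to S11 and 1 of the 3 with atrial transcripts, and the part of either was not tested.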

How the results depend on the processing

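No paired analysis was run, because the labels give no matching of mice between groups. The Aqp4 differences kept their direction in all alternatives run: -2.03 to -1.09 for TAC Veh minus Sham Veh, -1.75 to -1.06 for TAC 29P minus Sham 29P, 0.81 to 1.46 for TAC 29P minus TAC Veh and 0.77 to 1.13 for Sham 29P minus Sham Veh. The values nearest 0, -1.09 for TAC Veh minus Sham Veh and 0.81 for TAC 29P minus TAC Veh, came from a constant of 1, which by its construction shrinks low values. Aqp1 turned over to -0.29 for TAC 29P minus Sham 29P with median-of-ratios factors. In S1 to S11 alone Aqp1 was -0.033 for TAC 29P minus TAC Veh and 0.19 for Sham 29P minus Sham Veh. Aqp8 lost its call after TAC in 29P hearts within S1 to S11 (1.74, limma adjusted p = 0.180), where 1 library stands for Sham 29P and 1 for TAC Veh and is assumed to vary like the others.

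Counts of called genes moved more. For TAC Veh minus Sham Veh, with 3648 higher and 310 lower, TMM factors gave 685 and 860 (1545 in all), median-of-ratios factors 1540 in all, totals without mitochondrially encoded genes 2088, only the groups compared 2609, no S18, S19 and S20 2323 and S1 to S11 alone 2520. For TAC 29P minus Sham 29P, with 5097 and 181, these were 951 and 773 (1724), 1735 and 2388, with 706 under the run covariate and 11 in S1 to S11 alone. Leaving out 1 library gave 468 (S2) to 4584 and 1076 (S14) to 6683. For TAC 29P minus TAC Veh the count was 0, 0 to 2 (2 without S12) with a library left out and 10 in S1 to S11 alone. For Sham 29P minus Sham Veh it was 1, with 0 at constants of 0.1 and 1, in the groups compared alone and at a CPM of 0.5 in every library, 4 with no filter, 5 in S1 to S11 alone and 1 to 13 (without S4) with a library left out. The causes were not tested. Depth limits the precision of Aqp4 in TAC Veh and of Aqp11 outside Sham Veh, where counting error is near or above the spread between libraries.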
